A study of Mus musculus with 9 samples.

Results

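The genes described here are 10 genes of the MHC class I pathway: H2-K1, H2-D1, B2m, Tap1, Tap2, Tapbp, Psmb8, Psmb9, Psmb10 and Psme1. They were chosen by name, as every array feature whose annotated symbol is one of the 10, with earlier results of these data known. All 10 were measured on both array platforms, by 12 of 22393 features on one and 18 of 43790 on the other, among 16504 and 19087 named genes. The samples were mouse Neuro2A cells, a neuroblastoma line. FL cells carried full-length CCAT, a C-terminal fragment of 503 amino acids of the calcium channel CaV1.2, in the PA1 plasmid. DTA cells carried a fragment of 280 amino acids, said to lack the transcriptional activation domain, although the submitters' description adds that this form still activates transcription at a much lower level. Transfected cells were sorted for GFP 24 hours after Lipofectamine 2000 treatment, so each CCAT sample holds the GFP-expressing cells of a transient transfection, not a stable line. FL and DTA were each set against untransfected cells that also went through the sorter, and FL was also set against cells given the empty PA1 plasmid, with 3 two-colour arrays in each of these 3 comparisons. The empty-vector comparison used the other platform, and the design text gives as its reason that the plasmid by itself raised some genes.

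MHC class I molecules display peptides from inside the cell to cytotoxic T cells. Proteasomes cut proteins into peptides, the TAP transporter moves the peptides into the endoplasmic reticulum, and tapasin holds empty class I molecules at TAP until a peptide is bound. Neurons and neuroblastoma cells are known for low class I levels, which interferons raise together with the immunoproteasome, a proteasome form with 3 exchanged catalytic subunits.

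In these genes, the control regions of the heavy chains and of B2m are classical examples of interferon and NF-kappaB response elements. They are shown here because H2-K1 and B2m were more than 2-fold higher than in untransfected cells with both constructs, while H2-D1 was not. The stretches shown were cut around the letter matches described below, and only there is H2-D1 nearly identical to H2-K1. Whether the sequence bears on the ratios was not tested. RefSeq promoter windows of assembly GRCm38.p6, 250 bases before to 50 after each gene start, matched 9 of the 10 genes. Capitals mark matches on either strand to AANNGAAA, the core bound by interferon regulatory factors, and to GGGNNTTNC, part of the site bound by NF-kappaB, which do not overlap in these stretches. The H2-K1 stretch lies at chr17:34000405-34000483 on the minus strand, 150 to 72 bases before the gene start. The H2-D1 stretch lies at chr17:35262898-35262976 on the plus strand, 196 to 118 bases before its start. The B2m stretch lies at chr2:122147525-122147595 on the plus strand, 162 to 92 bases before its start.
H2-K1: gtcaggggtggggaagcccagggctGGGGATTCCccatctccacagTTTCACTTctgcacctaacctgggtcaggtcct
H2-D1: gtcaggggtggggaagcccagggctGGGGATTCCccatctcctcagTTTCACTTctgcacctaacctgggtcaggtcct
B2m: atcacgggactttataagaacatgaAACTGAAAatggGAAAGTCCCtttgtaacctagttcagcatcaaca

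The H2-K1 and H2-D1 stretches were identical at 78 of 79 bases. Aligned over the whole windows, these genes were identical at 225 of 347 columns (64.8%). The core AANNGAAA was found in the windows of 4 of the 9 genes and in 23.9% of all 32851 windows, and GGGNNTTNC in 3 of the 9 and in 15.2% of all windows. Both occurred together in the same 3 genes, H2-K1, H2-D1 and B2m, and in 3.6% of all windows. The letter patterns were chosen with the windows already seen, so these counts are a description and no test of enrichment. Psme1 was the fourth gene with AANNGAAA, and its matches lay just after the gene start. Tap1 and Psmb9 lie head to head on opposite strands, and their windows shared 275 of 300 bases. Neither of them, nor Tapbp, Psmb8 or Psmb10, held either letter pattern in its window. A match is a description of the reference sequence, which is of another mouse strain than the one Neuro2A came from, and not a site shown to be used.

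Values below are log2 ratios, with a positive ratio taken as higher in the CCAT channel. That order is likely, though no label gives it. Its basis is the design text's remark on the plasmid, and Gjb5, a recalled CCAT target, which had ratios of 3.18 with FL against untransfected cells and 3.84 with FL against empty vector. Cacna1c, the construct's own gene, had 0.15 with FL and 0.27 with DTA against untransfected cells, and -0.05 with FL against empty vector. Whether its features lie in the part that CCAT carries was not checked, so these ratios do not give construct levels. If the order is the reverse, all directions turn together. The labels give Cy3 for the CCAT side and Cy5 for the control side of all 9 arrays, so a dye effect on a single gene cannot be told apart from its ratio. Across genes, array pairs within a group correlated at 0.81 or more. DTA replicate 3, whose treatment text names the 503 amino acid construct, had correlations of 0.92 and 0.95 with its group, and of 0.73 to 0.79 with FL arrays. The files hold ratios and no levels, so the absence of a marker from the cells could not be checked, and less RNA per cell and fewer cells of a kind cannot be told apart. Nothing in the labels ties replicates to separate cultures, so p-values cover only how arrays of a group vary, and that variation may be technical.

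Against untransfected cells, all 10 genes were higher with FL and all 10 with DTA. CCAT, the plasmid, GFP and the transfection itself go together in both comparisons, so they cannot be told apart in these ratios. The ratios ran between 0.43 (Tap1) and 1.42 (B2m) with FL and between 0.29 (Tap1) and 1.33 (Psmb8) with DTA. The median over the 10 genes was 0.90 with FL and 0.96 with DTA, beside medians of -0.0019 and -0.0061 over all genes. At a limma adjusted p of 0.05, 69.8% of all genes were called with FL (34.7% higher, 35.1% lower) and 71.8% with DTA (35.7% higher, 36.1% lower), so a call alone sets a gene little apart and the size says more. At least 2-fold higher were 4 of the 10 genes with FL, beside 197 of 16504 genes, and 5 of the 10 with DTA, beside 300. Of the 10 genes, 9 were among the highest 5% of all genes with FL and 7 with DTA. As the 10 genes were chosen with earlier results of these data known, these counts describe them and are no test.

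**Figure D1:**
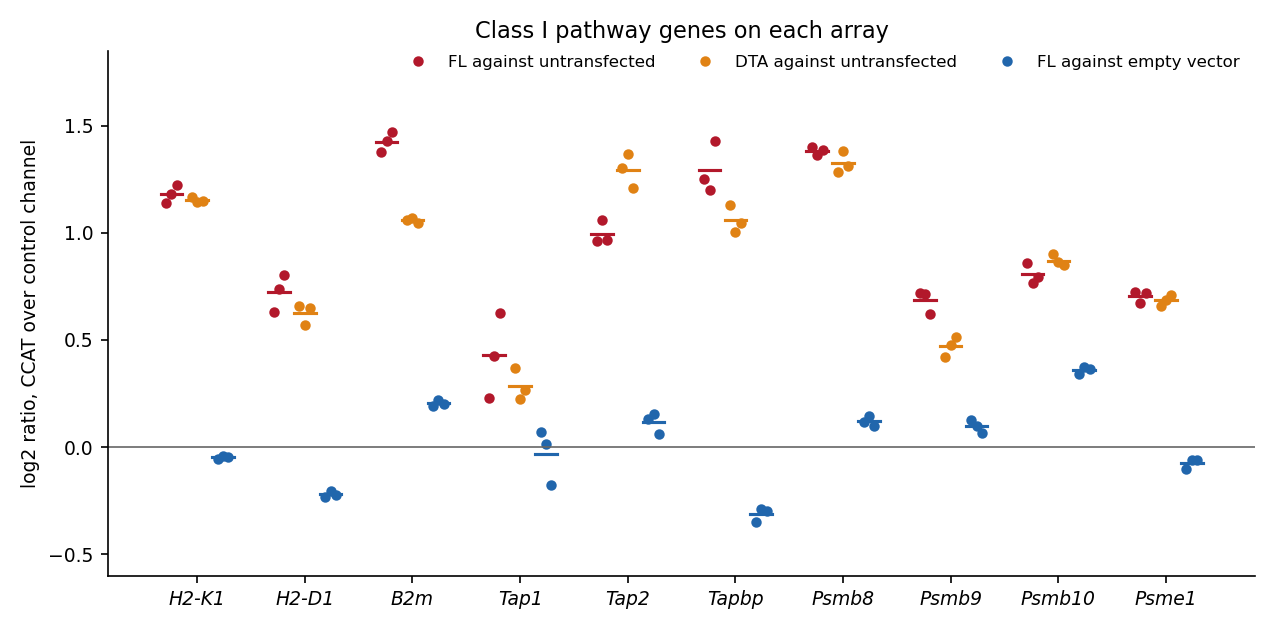
Log2 ratio of the CCAT over the control channel for each of the 10 genes (x axis), with 1 point per array, lines at group means, and 3 arrays in each of the 3 comparisons (FL in red, DTA in orange, both against untransfected cells, and the empty-vector comparison in blue). All FL and DTA points against untransfected cells lie above 0, whereas the empty-vector points lie between -0.35 and 0.38.

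**Figure D2:**
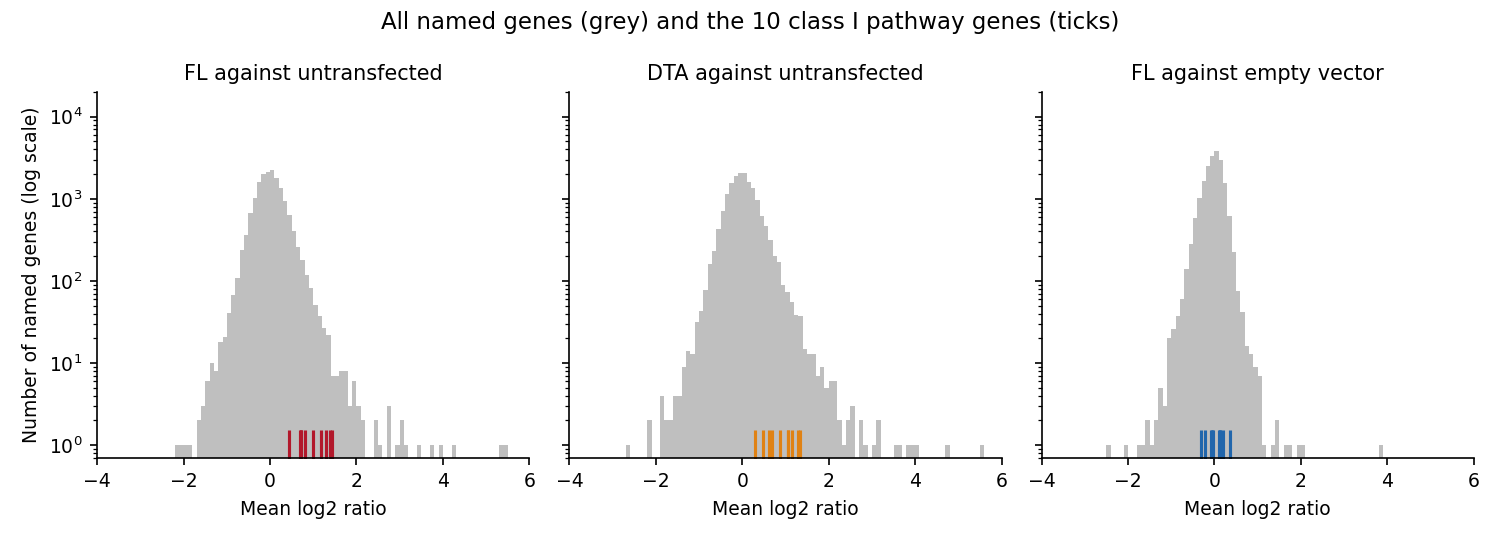
Number of named genes (y axis, log scale) by mean log2 ratio (x axis, bins of 0.1) in the 3 comparisons, with all named genes in grey and the 10 class I pathway genes as coloured ticks. The ticks lie on the right flank against untransfected cells, with medians of 0.90 and 0.96, and near the centre against empty vector, with a median of 0.03.

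The heavy chains H2-K1 and H2-D1 form the peptide-binding part of the class I molecule. H2-K1 had ratios of 1.14, 1.18 and 1.22 on the FL arrays, and of 1.17, 1.14 and 1.15 on the DTA arrays. The groups overlapped, and every array stood above 2-fold. The mean ratio was 1.18 with FL (SD 0.04, n = 3, limma adjusted p = 2.2e-06) and 1.15 with DTA (SD 0.01, n = 3, limma adjusted p = 2.4e-06). Here and for the genes below, SDs are of the group's own arrays, while p-values rest on the spread pooled over FL and DTA. With each group fitted alone, the limma adjusted p of H2-K1 was 0.0013 with FL and 2.3e-04 with DTA. The 3 features of H2-K1 gave means of 1.14 to 1.25 with FL and 1.08 to 1.23 with DTA, so they differed little.

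H2-D1 had ratios of 0.63, 0.74 and 0.80 on the FL arrays, and of 0.66, 0.57 and 0.65 on the DTA arrays. These also overlapped, at a level below that of H2-K1. The mean was 0.73 with FL (SD 0.09, limma adjusted p = 3.0e-05) and 0.63 with DTA (SD 0.05, limma adjusted p = 3.9e-05). H2-K1, H2-D1 and other class I heavy chain genes are close copies of each other, so a feature may pick up RNA of more than 1 of them, and values of single heavy chains are uncertain.

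B2m codes for beta-2-microglobulin, the light chain without which class I molecules do not reach the surface. Its ratios were 1.38, 1.43 and 1.47 on the FL arrays, and 1.06, 1.07 and 1.05 on the DTA arrays. The FL arrays all lay above the DTA arrays. With FL, B2m ranked 58th of 16504 genes (mean 1.42, SD 0.05, limma adjusted p = 1.8e-06), the highest of the 10, and with DTA it ranked 256th (mean 1.06, SD 0.01, limma adjusted p = 2.7e-06).

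Tap1 and Tap2 are the subunits of the peptide transporter. Tap1 had ratios of 0.23, 0.43 and 0.63 on the FL arrays, the widest spread of the 10 genes there, and 0.37, 0.22 and 0.27 on the DTA arrays. The groups overlapped widely. Its means of 0.43 with FL (SD 0.20, limma adjusted p = 0.0029) and 0.29 with DTA (SD 0.07, limma adjusted p = 0.014) were the lowest of the 10 in both comparisons. The DTA call was lost without DTA replicate 1 (limma adjusted p = 0.0768) or DTA replicate 3 (limma adjusted p = 0.0522).

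Tap2 had ratios of 0.96, 1.06 and 0.97 on the FL arrays, and of 1.30, 1.37 and 1.21 on the DTA arrays. It was the only one of the 10 genes with every FL array below every DTA array. Mean ratios were 1.00 with FL (SD 0.06, limma adjusted p = 1.2e-05) and 1.29 with DTA (SD 0.08, limma adjusted p = 4.6e-06).

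Tapbp codes for tapasin, which bridges TAP and empty class I molecules. It had ratios of 1.25, 1.20 and 1.43 on the FL arrays, and of 1.13, 1.00 and 1.05 on the DTA arrays. FL arrays lay above DTA arrays, with a gap smaller than the range within FL. The mean was 1.29 with FL (SD 0.12, limma adjusted p = 1.2e-05) and 1.06 with DTA (SD 0.06, limma adjusted p = 1.6e-05).

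Psmb8, Psmb9 and Psmb10 are the catalytic subunits of the immunoproteasome. Psmb8 had ratios of 1.40, 1.36 and 1.39 on the FL arrays, and of 1.29, 1.38 and 1.31 on the DTA arrays, with overlap. Psmb9 had 0.72, 0.72 and 0.62 on the FL arrays, and 0.42, 0.48 and 0.51 on the DTA arrays, without overlap. Psmb10 had 0.86, 0.77 and 0.79 on the FL arrays, and 0.90, 0.86 and 0.85 on the DTA arrays, again with overlap. The ratio of Psmb8 was thus the largest of the 3 on each of the 6 arrays and that of Psmb9 the smallest. Psmb8 averaged 1.38 with FL (SD 0.02) and 1.33 with DTA (SD 0.05), the limma adjusted p being 1.9e-06 with FL and 2.4e-06 with DTA. The limma adjusted p was 1.7e-05 with FL and 4.7e-05 with DTA for Psmb9, and 8.2e-06 and 4.6e-06 for Psmb10.

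Psme1 codes for the alpha subunit of the PA28 activator, which opens the proteasome to peptide release. Its ratios were 0.72, 0.67 and 0.72 on the FL arrays, and 0.66, 0.69 and 0.71 on the DTA arrays. The groups overlapped and all 6 values fell within a narrow band. The mean was 0.71 with FL (SD 0.03, limma adjusted p = 8.0e-06) and 0.69 with DTA (SD 0.03, limma adjusted p = 5.3e-06).

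In order of their FL ratios the genes were B2m, Psmb8, Tapbp, H2-K1, Tap2, Psmb10, H2-D1, Psme1, Psmb9 and Tap1. Among the 9 pairs of neighbours in that order, the arrays overlapped in 7. The steps between H2-K1 and Tap2 and between Tap2 and Psmb10 were the other 2. With DTA the order was Psmb8, Tap2, H2-K1, Tapbp, B2m, Psmb10, Psme1, H2-D1, Psmb9 and Tap1, and 7 of 9 neighbours did not overlap. The exceptions were Psmb8 with Tap2 and Tapbp with B2m. Tap1 and Psmb9 took the lowest places in both orders, though with FL the arrays of Psmb9 overlapped those of Psme1. By their ratios against empty vector Psmb9 and Tap1 took places 5 and 6. These orders compare ratios of different features, which may respond on different scales.

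FL and DTA were compared directly in the shared fit of the 6 arrays. The contrast asks which ratios differ between cells with the whole fragment and cells with the shorter one, and it also holds any difference in construct level, which was not measured here. Of the 10 genes 3 were higher with FL (B2m, Tapbp and Psmb9), 1 was lower (Tap2) and 6 did not pass the limma threshold of 0.05. Among all genes 34.2% passed, 18.2% higher and 16.1% lower, so 4 of 10 is near the background. The same 4 genes had arrays that did not overlap between FL and DTA, as had 50.0% of all genes (26.0% with FL above, 24.0% with FL below). No difference reached 2-fold.

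B2m differed most, by 0.37 (SE 0.03, limma adjusted p = 0.0013, 95% interval 0.28 to 0.45). Psmb9 was higher with FL by 0.22 (SE 0.04, limma adjusted p = 0.013, 95% interval 0.11 to 0.32). Tap2 differed by -0.30 (SE 0.05, limma adjusted p = 0.0092, 95% interval -0.43 to -0.17) and its call was lost with quantile normalization (difference -0.18, limma adjusted p = 0.052). For Tap1, the other subunit of the transporter, the difference of 0.14 did not pass (95% interval -0.12 to 0.40, limma adjusted p = 0.344) and was 0.04 without FL replicate 3. Tapbp was higher by 0.23 (SE 0.07, limma adjusted p = 0.0496), a call lost without FL replicate 1 or 3 or without any one of the 3 DTA arrays, with limma adjusted p values of 0.0557 to 0.146.

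The remaining genes did not pass, with the following intervals. H2-K1 differed by 0.03 (95% interval -0.05 to 0.11), Psme1 by 0.02 (-0.06 to 0.10), Psmb8 by 0.06 (-0.03 to 0.14), Psmb10 by -0.06 (-0.15 to 0.03) and H2-D1 by 0.10 (-0.03 to 0.23). With quantile normalization, H2-K1 differed by 0.15 (limma adjusted p = 0.016) and Psmb8 by 0.18 (limma adjusted p = 0.014), both called and beyond these intervals. The 3 features of H2-K1 gave differences of -0.09 to 0.11. A test that was not passed does not show that the constructs gave the same value. Gjb5, set beside them for scale, differed by 2.87 between FL and DTA.

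**Figure D3:**
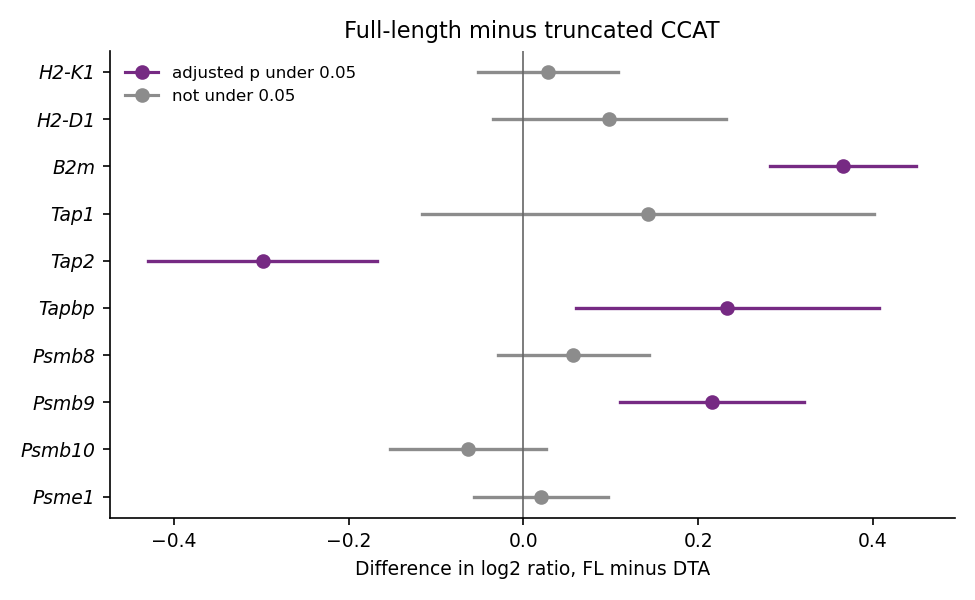
Difference in log2 ratio, FL minus DTA (x axis), for the 10 genes (y axis), with points at the limma estimate and lines for the 95% interval from the fit of 6 arrays. The intervals of B2m, Tapbp and Psmb9 lie above 0 and that of Tap2 lies below 0 (-0.43 to -0.17).

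Against empty vector the ratios were small and went both ways. Of the 10 genes 5 were higher (B2m, Tap2, Psmb8, Psmb9 and Psmb10), 3 were lower (H2-D1, Tapbp and Psme1) and 2 did not pass (H2-K1 and Tap1). Among all genes of that platform 30.6% were called higher and 32.8% lower, 63.4% in all. The median over the 10 genes was 0.03, beside a median of -0.0048 over all genes, and the ratios ran between -0.31 and 0.36. None of the 10 reached 2-fold, and 1 lay among the highest 5% of genes. These values come from another platform than the ratios against untransfected cells and were normalized separately, so the comparisons are set side by side without a test.

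Psmb10 had the highest ratio, 0.34, 0.38 and 0.36 on the 3 arrays (mean 0.36, SD 0.02, limma adjusted p = 0.0021). B2m followed with 0.19, 0.22 and 0.20 (mean 0.21, SD 0.01, limma adjusted p = 0.0027). Tapbp had the lowest, -0.35, -0.29 and -0.30 (mean -0.31, SD 0.03, limma adjusted p = 0.0024), and H2-D1 had -0.23, -0.21 and -0.22 (mean -0.22, SD 0.01, limma adjusted p = 0.0025). Each of these 4 genes was on one side of 0 on all 3 arrays and kept its call without any one array.

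The other 4 called genes had smaller ratios. Psmb8 had 0.12, 0.14 and 0.10 (mean 0.12, SD 0.02, limma adjusted p = 0.0090). Tap2 had 0.13, 0.15 and 0.06 (mean 0.12, SD 0.05, limma adjusted p = 0.025). Psmb9 had 0.12, 0.10 and 0.07 (mean 0.10, SD 0.03, limma adjusted p = 0.019). These 3 were above 0 on every array, as they had been against untransfected cells. Psme1 had -0.10, -0.06 and -0.06 (mean -0.07, limma adjusted p = 0.030). The calls of these 4 genes were lost with fewer arrays. Tap2 and Psmb9 were lost without replicate 1 or 2, with a limma adjusted p of 0.1045 and 0.0919 without replicate 2. Psmb8 was lost without replicate 2 (limma adjusted p = 0.0533), and Psme1 without any one array (limma adjusted p of 0.0843 to 0.103).

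H2-K1 had -0.05, -0.04 and -0.05 against empty vector (mean -0.05, limma adjusted p = 0.0539, from the fit of these 3 arrays alone). Tap1 had 0.07, 0.02 and -0.18 (mean -0.03, limma adjusted p = 0.678) and was the only one of the 10 with arrays on both sides of 0. Without replicate 3 its mean was 0.04.

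Several features measured the same gene on this platform, and they did not always give the same direction. The 5 features of H2-K1 had means of -0.26 to 0.13, with 2 features at or below -0.22 on every array and the other 3 above 0 on every array. The 2 features of Tapbp gave -0.48 and -0.14. The 3 of B2m gave 0.08 to 0.35 and the 2 of Psmb8 0.11 and 0.13. The spread between features of H2-K1 and of Tapbp was thus wider than the spread between arrays. Of the 18 features, 10 were called higher, 6 lower and 2 not. Against untransfected cells all 12 features were called higher, with FL and with DTA. The share of all features called was not computed. Among all genes 63.4% were called against empty vector, 30.6% higher and 32.8% lower. Higher calls against untransfected cells made up 34.7% of all genes with FL and 35.7% with DTA. Features of the same gene are also not separate results.

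**Figure D4:**
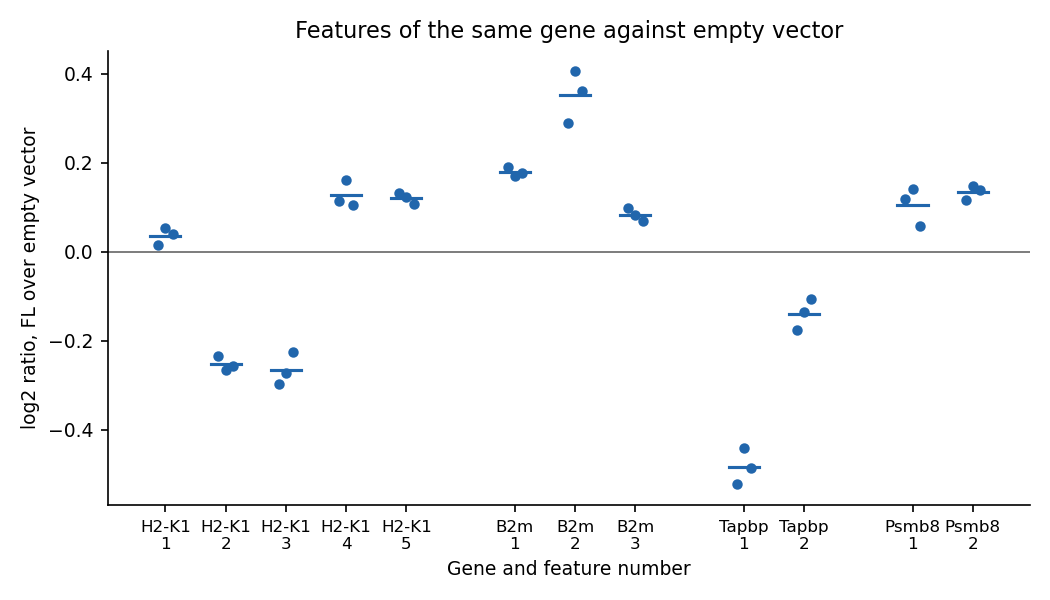
Log2 ratio of FL over empty vector (y axis) for each feature of the 4 genes with more than 1 feature (x axis), with 1 point per array and lines at the mean of 3 arrays. Features of H2-K1 fall on both sides of 0 (means -0.26 to 0.13), and those of Tapbp lie apart at -0.48 and -0.14.

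The rest of the class I pathway was described from lists written with results of these data known. List counts here and below stand beside these shares of all genes. With FL 34.7% were called higher and 35.1% lower, with DTA 35.7% and 36.1%, and against empty vector 30.6% and 32.8%. For FL minus DTA the shares were 18.2% and 16.1%. Of 19 measured other class I and class I-like heavy chains, 12 were higher and 3 lower with FL, and 12 and 4 with DTA, with medians of 0.40 and 0.39. H2-T10, a nonclassical class I gene, had 1.66 with FL and 1.36 with DTA, above each of the 10 genes in both. H2-Q7, measured by 10 features, had 1.37 with FL and 1.38 with DTA. H2-T23, the mouse Qa-1 gene whose product is seen by natural killer cells, had 1.34 and 1.27, and H2-Q5 had 1.25 and 1.18. These 4 genes thus lay within or above the range of the 10 genes in both comparisons. Cd1d1, which presents lipids, was lower, with -0.70 with FL and -0.71 with DTA. Against empty vector 10 of 28 were higher and 10 lower, with H2-T10 at 0.26 and H2-Q8 at -0.76.

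Peptide trimming and loading genes were higher in 8 of 9 with FL and 8 of 9 with DTA, and 0 and 1 were lower. The chaperone Canx had 1.07 with FL and 0.86 with DTA, the aminopeptidase Npepps 1.05 and 1.33, and the tapasin relative Tapbpl 0.94 and 0.87. The oxidoreductase Pdia3, a partner of tapasin in the loading complex, had 0.40 and 0.36. Against empty vector 3 of 9 were higher and 1 lower, with Npepps at 0.29 and Tapbpl, like Tapbp, below 0 at -0.38.

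Genes of the standard proteasome went both ways. Of 13 measured genes of the constitutive 20S core 5 were higher and 7 lower with FL, and 2 and 9 with DTA, with medians of -0.09 and -0.15. Psmb2 had 0.21 with FL and -0.15 with DTA, and Psmb7 had 0.12 with FL and -0.20 with DTA. Of 20 genes of the 19S particle 13 were higher and 6 lower in both comparisons, with Psmd1 at 0.67 with FL and 0.70 with DTA and Psmd14 at -0.39 and -0.53. Psmd11 had 0.24 with FL and 1.05 with DTA, a difference of -0.81 (limma adjusted p = 0.0014). Among 7 activator, inhibitor and assembly genes 4 were higher and 0 lower with FL, and 3 and 1 with DTA. Pomp, the assembly factor of new proteasomes, had 0.31 with FL and 0.23 with DTA. Psme3, which codes for the nuclear PA28 subunit, had 0.32 and 0.66, a difference of -0.34 between FL and DTA (limma adjusted p = 9.2e-04).

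Set against DTA, FL cells had higher ratios of 10 of the 13 core genes and a lower ratio of 1. Psmb2 differed by 0.36 and Psmb7 by 0.32. Against empty vector 10 of 14 core genes were higher with FL and 0 lower, with Psma3 at 0.38, and 13 of 20 genes of the 19S particle were higher and 2 lower.

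**Figure D5:**
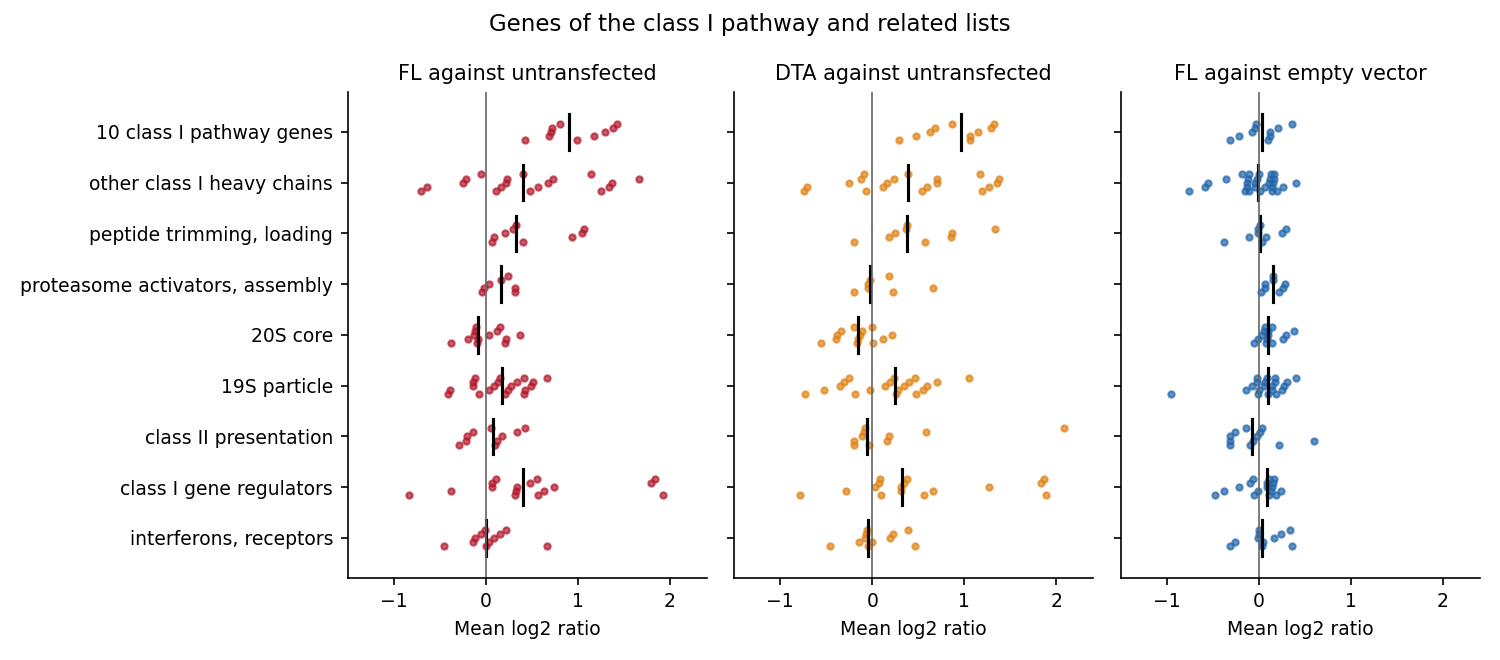
Mean log2 ratio (x axis) of each measured gene in the 10 class I pathway genes and in 8 related lists (y axis), with 1 point per gene and a black line at the list's median, in the 3 comparisons. The 10 genes have medians of 0.90 and 0.96 against untransfected cells, the 20S core has -0.09 and -0.15, and against empty vector the list medians lie between -0.08 and 0.15.

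Of 16 measured regulators of class I genes, 12 were higher and 2 lower with FL, and 13 and 2 with DTA. Among all genes 34.7% were called higher and 35.1% lower with FL, and 35.7% and 36.1% with DTA. Stat2 and Irf9, subunits of a factor that type I interferon activates, had 1.84 and 1.80 with FL and 1.89 and 1.84 with DTA. Irf7 had 1.92 with FL and 1.27 with DTA, and Irf1, a direct activator of class I genes, 0.57 and 0.32. Against these, Irf3, which switches on interferon genes after sensing of foreign nucleic acid, had -0.83 and -0.79. Set against DTA, FL cells had 3 of the 16 regulators higher and 3 lower. FL was higher by 0.65 for Irf7 (limma adjusted p = 0.033), by 0.26 for Irf1 (limma adjusted p = 0.0039) and by 0.40 for Irf2 (limma adjusted p = 0.0011). The lower genes code for parts of factors that bind class I and class II promoters. Nfyc differed by -1.13 (limma adjusted p = 0.036), with means of 0.74 with FL and 1.87 with DTA, and Rfx5 differed by -0.27 (limma adjusted p = 0.0072) and Rfxap by -0.11 (limma adjusted p = 0.040).

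Against empty vector 9 of 17 regulators were higher and 4 lower, with Irf9 at 0.25 and Irf1 at -0.01. Nlrc5, the class I transactivator, was lower by this comparison at -0.37 (SD 0.03, limma adjusted p = 0.0021), while Nlrc5 against untransfected cells was not analysed here. Interferons and their receptors were higher in 2 of 11 and lower in 2 with FL, and 4 and 4 with DTA. Ifngr1, a receptor chain for interferon gamma, had 0.67 with FL, 0.39 with DTA and 0.36 with FL against empty vector. Ifng had -0.45 with FL and -0.46 with DTA.

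Class II presentation genes, which serve another pathway, were higher in 2 of 10 and lower in 2 with FL, and 3 and 3 with DTA. H2-Ob, the beta chain of a class II chaperone and the next gene after Tap2, had -0.22 with FL and 2.08 with DTA, a difference of -2.29 (limma adjusted p = 7.6e-04). Cd74, the invariant chain, had 0.43 with FL and 0.17 with DTA. Among 4 measured ligands of natural killer cell receptors, Ulbp1 had 0.74 with FL and 0.25 with DTA, of which only the FL value passed, and Cd48 had -0.48 with FL and -0.19 with DTA, where again only the FL value passed. Pvr had -0.06 with FL and 0.25 with DTA, of which only the DTA value passed, and Nectin2 had -0.18 with FL, which passed, and 0.12 with DTA, which did not. Against empty vector Ulbp1, Pvr and Nectin2 were lower, at -0.28, -0.26 and -0.23, and Cd48 (-0.11) and Raet1e (-0.27) did not pass.

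Of the 10 genes 7 lie in the MHC on chromosome 17, and B2m, Psmb10 and Psme1 lie on chromosomes 2, 8 and 14. Psmb9, Tap1, Psmb8 and Tap2 are next to each other. The nearest measured coding genes that flank the MHC members, a set chosen after seeing the data, were 8 genes, of which 3 were higher and 3 lower with FL and 6 and 2 with DTA. Their median was -0.03 with FL and 0.37 with DTA. Zbtb22 and Rgl2, on either side of Tapbp, had -0.11 and -0.15 with FL, beside 1.29 for Tapbp, and 0.33 and 0.23 with DTA, beside 1.06. On either side of H2-K1, Vps52 had -0.28 with FL and -0.21 with DTA, and Ring1 had 0.46 with FL and 0.40 with DTA. On either side of H2-D1, Ddx39b had 0.05 with FL, which did not pass, and -0.24 with DTA, and the class I gene H2-Q1 had 0.73 with FL and 0.70 with DTA. H2-DMb1, before Psmb9, had 0.34 with FL and 0.59 with DTA, and H2-Ob, after Tap2, is given above.

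The profile most like that of Psmb8, the gene with the highest mean ratio over the 6 arrays, was sought among 16328 genes on both platforms. The smallest root mean square distances over the 9 arrays were those of Ppp1r15a (0.05), Oasl1 (0.06), Gapdhs (0.07), Trim25 (0.10) and H2-T23 (0.10). Ppp1r15a had means of 1.43 with FL, 1.39 with DTA and 0.11 with FL against empty vector, beside 1.38, 1.33 and 0.12 for Psmb8. The 9 arrays are of 3 groups, so such a distance mainly compares 3 values.

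Markers of immune cells, which carry much class I, were set beside these results. Their counts stand beside 34.7% of all genes called higher and 35.1% lower with FL, and 35.7% and 36.1% with DTA. Of 10 measured markers 0 were higher and 5 lower with FL, 1 higher and 5 lower with DTA, and 0 higher and 4 lower with FL against empty vector, with ratios no higher than 0.27. Cd14 had -0.64 with FL, -0.62 with DTA and -0.48 against empty vector, and Lyz2 had -0.35 with FL and -0.63 with DTA. The marker higher with DTA was Cd3e, at 0.27. Fibroblast markers were higher in 1 of 7 and lower in 4 with FL, and 1 and 2 with DTA. Thy1 had -0.30 with FL and -0.35 with DTA, while the highest ratios of the 7 were 0.17 with FL (Dcn) and 0.22 with DTA (Lum). Endothelial markers were higher in 0 of 3 and lower in 2 with FL, and 1 and 1 with DTA: Cdh5 had -0.53 with FL and -0.51 with DTA, Kdr -0.26 and 0.16, and Pecam1, which did not pass in either, -0.27 and -0.04. Glial markers were higher in 1 of 4 and lower in 1 with FL, and 0 and 1 with DTA: Gfap had -0.19 with FL and -0.18 with DTA, Mbp 0.12 with FL, and the other values, of Mbp with DTA and of Aqp4 and S100b, lay between -0.09 and 0.03 and did not pass. Neuroblast markers were higher in 5 of 16 and lower in 7 with FL, and 7 and 6 with DTA, with Th, the first enzyme of catecholamine synthesis, at -0.47 and -0.59. Mycn, the neuroblastoma oncogene, had -0.17 with FL and 1.31 with DTA, a difference of -1.48 (limma adjusted p = 1.8e-04), and Isl1, a neuronal transcription factor, had 0.09 with FL, which did not pass, and 0.63 with DTA. The part of other cells in the class I ratios was not tested.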

How the data were processed

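Per the labels, the study hybridised Cy3-labelled RNA of CCAT-transfected, sorted cells with Cy5-labelled control RNA on 2 Agilent mouse platforms. The deposited values are log10 ratios of both channels, from the Rosetta Luminator software per the design text; of their order, background correction and dye normalization the text says nothing. The log base was inferred from values ending at exactly -2 on the platform of the 6 arrays against untransfected cells. On the empty-vector platform the lowest value was -1.82, and the same base was assumed. No background or saturation flags were used. The text of one empty-vector array names the other dye for the control channel than its label field.

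Ratios were converted to log2 and averaged over the features of a gene (platform annotation, symbols of GRCm38.p6; 18218 and 32042 features with 1 symbol). Tests used lmFit and eBayes of limma 3.58.1 (R 4.3.3), Benjamini-Hochberg over all named genes, threshold 0.05. The 6 arrays against untransfected cells shared 1 fit (4 residual degrees of freedom) and the 3 against empty vector had their own (2). The steps were tested on simulated data.

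Named are all 10 genes, the 5 profiles nearest to the gene with the highest mean, Gjb5 and Cacna1c. From each list at most 6 genes per comparison are named, out of those with the smallest p past the threshold (all genes of lists with up to 5 measured). The 10 genes and the lists were chosen with earlier results of these data known. Same-numbered FL and DTA arrays did not deviate together (correlations -0.04, 0.09 and -0.0025), so they were not paired. Alternatives were array centring, quantile normalization, the median over features, the feature with the smallest p, leaving out zero ratios, leaving out genes that barely varied, robust eBayes, a test for over 1.5-fold, groups fitted alone, a replicate block and leaving out each array. The promoter letter patterns were chosen with the windows already seen. Figures were drawn with matplotlib 3.10.9.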

Additional observations from a re-analysis of the deposited data

Results flagged for a closer look

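The difference between constructs itself was tested, as FL minus DTA under the same contrast with untransfected cells, and 4 of the 10 genes passed. B2m differed by 0.3659, Tapbp by 0.2335, Psmb9 by 0.2159 and Tap2 by -0.2982 on the log2 scale. Each had FL arrays wholly on one side of the DTA arrays, as had 50.0% of all genes. Tapbp passed narrowly (limma adjusted p = 0.0496). With a replicate block Tapbp and Psmb9 did not pass (limma adjusted p = 0.0713 and 0.0546). Tap2, in the same gene cluster as Psmb9, went the other way. As 34.2% of all genes passed this test, 4 of 10 is near the background. Construct levels were not measured, and their part in these differences was not tested.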

How the results depend on the processing

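The 10 genes kept their direction against untransfected cells under every alternative run, with FL and with DTA, and all 10 stayed called except in the test for over 1.5-fold and, with DTA, without DTA replicate 1 or 3, which lost Tap1. Tested for over 1.5-fold, 492 genes passed with FL (7 of the 10) and 734 with DTA (7 of the 10). H2-D1, Tap1 and Psmb9 did not pass that test with either construct. It was passed by 30 genes for FL minus DTA (0 of the 10) and 2 against empty vector (0 of the 10). For FL minus DTA, leaving out an array gave 3 to 4 of the 10 and 3415 to 5836 of all genes; with a replicate block 2 of the 10 passed, B2m and Tap2, where the arrays share only a number, and no member call against untransfected cells changed. Quantile normalization turned Psmb10 to 0.024, lost Tap2 (-0.18) and called H2-K1 (0.15) and Psmb8 (0.18), and the feature with the smallest p called H2-K1 and lost Tapbp; the cause was not tested. Against empty vector, leaving out an array gave 4 to 7 of the 10. Without barely varying genes 7629 genes passed, since fewer were tested. That filter left out H2-K1, Tap1, Tap2, Psmb8, Psmb9 and Psme1, whose ratios stayed under 0.2 in size on every array. The 4 members still tested all passed. H2-K1 against empty vector was 0.0362 by the median over its features and -0.25 by its feature with the smallest p. Tap1 ran between -0.0814 and 0.0434 when an array was left out. With 3 arrays a group, no dye swap and most members on 1 feature, differences of about 0.1 rest on little.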
